A study of Mus musculus with 6 samples.

Results

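The 40 mitosis and G2/M genes examined here encode the cyclin-CDK1 switch, the mitotic kinases, the motors, the kinetochore and the spindle machinery that carry a cell through chromosome segregation and cytokinesis. They were taken as a list of names with no threshold on their values. Rows for all 40 were found among the 19446 genes of the expression table, and all 40 passed the filter of at least 10 reads in at least 2 libraries, as did 15948 genes in all. The table was made from poly(A) RNA-sequencing of cultured cardiac fibroblasts (CFs), the matrix-producing stromal cells of the heart, from C57BL/6J mice labelled as 5 weeks old. There were 3 wild-type (WT) libraries and 3 libraries from CharmeKO mice, in which an inserted polyadenylation signal interrupts the locus of Charme, a long non-coding RNA of heart muscle. Both groups were untreated. The CFs were the early-passage outgrowth of atrial tissue explants pooled from several littermates, grown on fibronectin in serum-rich medium, so a library stands for a pool of animals and for one part of the heart. The titles number the libraries of each genotype from 1 to 3, with no word on what libraries of the same number share. In the sample names WT and CharmeKO libraries of the same number carry consecutive indices, which the labels do not explain. The study's methods state in general that its experiments used independent primary isolations, without tying a library to one. The p-values of the fit of genotype alone measure the spread between the libraries of a genotype. Where the number is fitted as well, they measure the spread left after number and genotype.

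These genes act in a short window of the cell cycle. Cyclin B with CDK1 starts mitosis, Polo-like and Aurora kinases build and orient the spindle, the checkpoint holds back the anaphase-promoting complex (APC/C) until every kinetochore is attached, and anillin, the centralspindlin complex and midzone kinesins then divide the cell. Most of them are transcribed late in the cycle and are silent in resting cells, so in a bulk culture their transcripts follow how many cells are dividing. Resident fibroblasts of the adult heart rarely divide and re-enter the cycle when explanted into serum. In bulk RNA, fewer dividing cells and fewer transcripts in each dividing cell cannot be told apart.

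Many promoters of this class carry a cell cycle genes homology region (CHR), read by MuvB complexes such as DREAM and the MYBL2 and FOXM1 forms, together with CCAAT boxes bound by NF-Y. RefSeq promoter windows on the GRCm38.p6 assembly, running from 250 bases before to 50 bases after an annotated start, were matched for 32 of the 40 genes in 33 windows. In 22 of the 33 the first bases after the RefSeq start were found in a GENCODE transcript of the gene, so for the other windows the 2 annotations differ on the start, and distances are from the RefSeq one. A CHR (TTTGAA or TTCGAA, either strand) was found in 25 of these 32 genes (78.1%), against 21.7% of the 27025 genes in the promoter table and 16.4% of the 11306 tested genes that have a window. A CCAAT box (CCAAT, either strand) was present in 24 (75%), against 41.1% and 42.6%. Both occurred in 21 of the 32 (65.6%), against 8.61% and 6.78%. Neither motif contains the other, though matches that abut may share an end letter. The sequences shown here belong to the 5 genes that had both motifs within the last 110 bases before the start and at most 30 of those bases in an annotated exon, because the spacing of the motifs is easiest to see there. They are written 5′ to 3′ on the strand of the gene, end just before the start, and have the CHR and CCAAT matches in capitals (TTCAAA and ATTGG are the same motifs on the other strand).

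Cdk1 (chr10:69352913-69353022, minus strand): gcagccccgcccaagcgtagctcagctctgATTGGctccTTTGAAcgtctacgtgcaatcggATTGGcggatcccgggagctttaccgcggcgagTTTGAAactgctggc
Cdc20 (chr4:118437344-118437453, minus strand): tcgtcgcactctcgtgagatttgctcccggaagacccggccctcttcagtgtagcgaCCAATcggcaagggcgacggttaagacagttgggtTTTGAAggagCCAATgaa
Top2a (chr11:99024190-99024299, minus strand): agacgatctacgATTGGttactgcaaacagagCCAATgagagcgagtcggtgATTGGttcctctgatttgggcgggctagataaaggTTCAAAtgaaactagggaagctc
Kif11 (chr19:37376272-37376381, plus strand): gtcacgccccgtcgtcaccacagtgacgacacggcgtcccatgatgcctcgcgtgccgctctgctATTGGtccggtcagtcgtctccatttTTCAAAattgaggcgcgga
Espl1 (chr15:102296183-102296292, plus strand): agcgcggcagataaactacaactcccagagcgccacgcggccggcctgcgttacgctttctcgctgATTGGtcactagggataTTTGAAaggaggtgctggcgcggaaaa

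In each of the 5 a CHR lay just before the RefSeq start, with its first base between -27 and -15, and a CCAAT box lay upstream of it. In Cdk1 and Espl1 that CHR fell within the 26 and 27 printed bases that GENCODE annotates as exon. Cdk1 held a second CHR at -71 and CCAAT boxes at -80 and -48, and Top2a held CCAAT boxes at -98, -78 and -58, counted as the distance of the first base of the motif from the start. A letter match is a description and not a binding site. Of the genes without a CHR in their window, Ccnb1, Cenpe and Cks2 had a CCAAT box, and Birc5, Mad2l1, Nuf2 and Nusap1 had neither.

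**Figure D1:**
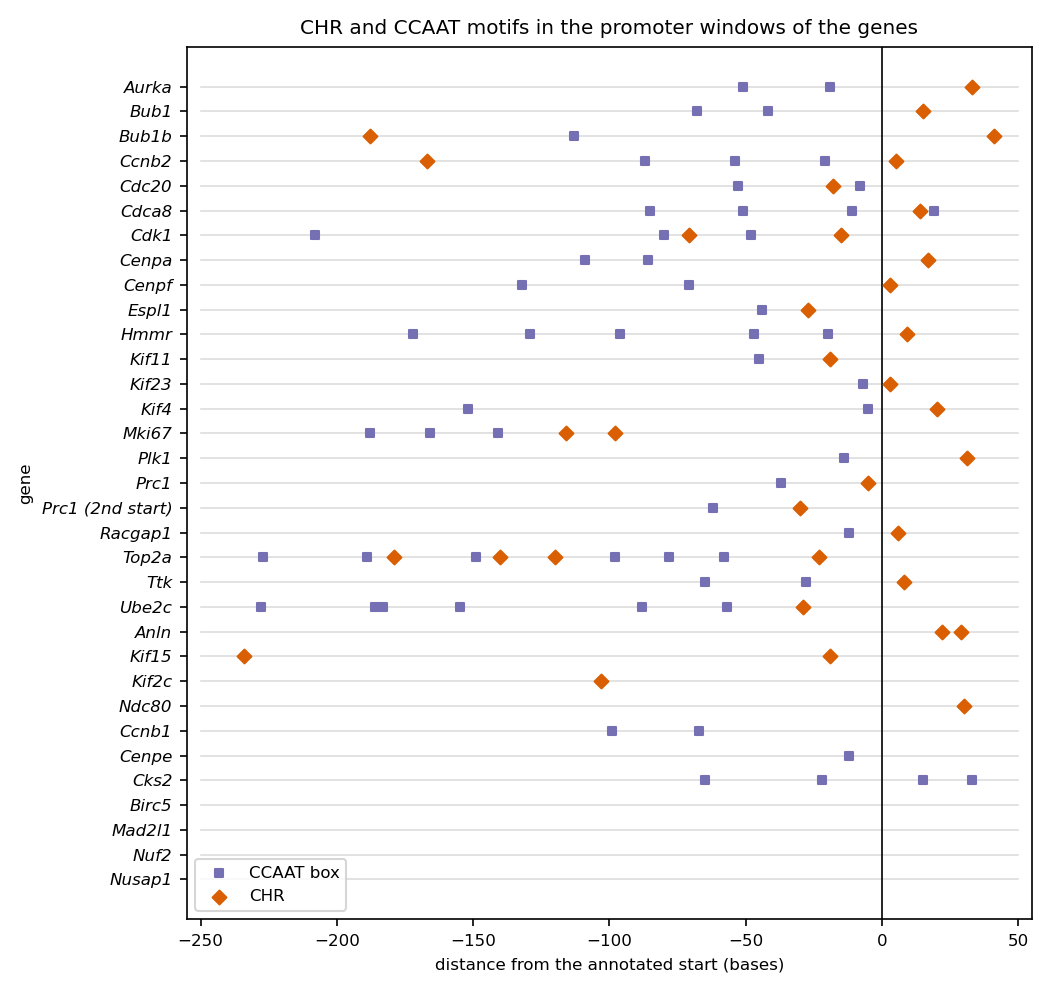
CHR (diamonds) and CCAAT (squares) matches in 33 promoter windows of 32 mitosis and G2/M genes, by distance in bases from the annotated start (vertical line). Windows with both motifs are at the top, and in most of them the CHR lies closer to the start than the nearest upstream CCAAT box or just past the start.

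The libraries held 38330019 to 46797446 reads in genes. The values are normalised reads, the reads of a gene divided by one size factor for each library. The row taken to be Charme, an entry the study added to its annotation, had 5, 15 and 11 reads in WT 1 to 3 and 0, 6 and 3 in CharmeKO 1 to 3, so the knockout could be checked only at a few reads. Of 12 fibroblast markers all were expressed, with summed levels of 26200 to 54810 CPM (reads scaled to the library total) in WT and 34220 to 45230 CPM in CharmeKO. Macrophage and other haematopoietic markers (12 in the table) summed to 42.1 to 205 CPM in WT and 18.4 to 436 CPM in CharmeKO, with Ptprc, Itgam and Fcgr1 at 0 in some library, and 12 smooth muscle and pericyte markers to 803 to 5840 and 293 to 3106 CPM.

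In every one of these libraries the mitosis and G2/M genes were expressed, and their level differed widely between library numbers and little between genotypes of one number. The 40 genes together took 0.106%, 0.0427% and 0.139% of the reads in WT 1, 2 and 3 and 0.107%, 0.0391% and 0.132% in CharmeKO 1, 2 and 3. The mean of their log2(normalised reads + 1) values was 9.76, 8.36 and 10.13 in WT and 9.83, 8.26 and 9.997 in CharmeKO. Both libraries numbered 2 were thus the low ones, and those numbered 3 the high ones, in each genotype. For 40 of 40 genes both number 2 libraries lay below the other 4, which held for 18.4% of all genes tested. The lowest value was in CharmeKO 2 for 24 genes and in WT 2 for 16, and the highest in WT 3 for 27, CharmeKO 3 for 11 and CharmeKO 1 for 2 (Cdk1 and Cdc20). The depth of the number 2 libraries (38330019 and 39823822 reads) was close to that of WT 3 (38498183), the library with the highest level. The part of depth in these levels was not tested.

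**Figure D2:**
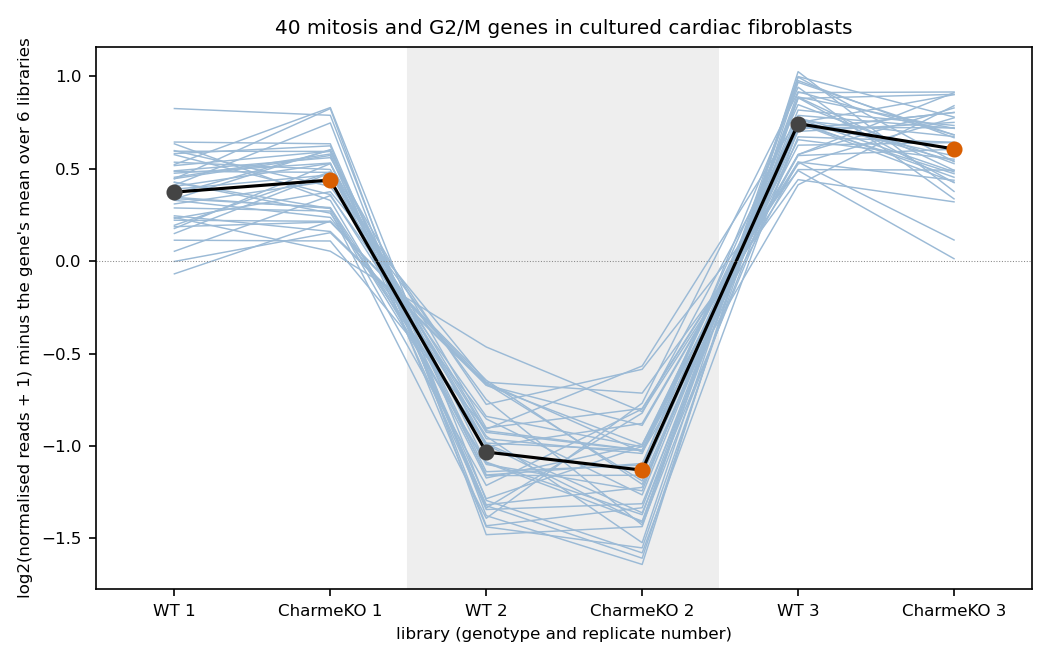
Log2(normalised reads + 1) of each of the 40 genes (thin lines) minus its mean over the 6 libraries, in the order WT 1, CharmeKO 1, WT 2, CharmeKO 2, WT 3, CharmeKO 3; large points are the mean over genes (grey WT, orange CharmeKO). All 40 lines fall in both libraries numbered 2 (shaded), and WT and CharmeKO of one number sit side by side.

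The span from the lowest to the highest library was 2.23-fold for Incenp, the scaffold of the chromosomal passenger complex, and 6.40-fold for Cdca8, another subunit of the same complex. On the log2 scale it ran from 1.16 to 2.67 with a median of 2.01, against a median of 1.07 over all genes tested. Within a genotype the coefficient of variation was 31.6% to 66.3% in WT and 34.6% to 64.8% in CharmeKO, with medians of 54.2% and 54.6%. When the sum of squares of the log2 values was divided among genotype, number and remainder, the number held 97.3% for these genes, genotype 1.07% and the remainder 1.64%. Over all genes tested the shares were 67.8%, 10.6% and 21.7%. The number held most of the variation in every one of the 40, from 91.3% for Cks2, a CDK1 adaptor, to 99.9% for Ccna2, cyclin A2.

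Over the 6 libraries the genes rose and fell as a block. The Pearson correlation of a gene with the mean of the other members was lowest for Cks2 (r = 0.92) and highest for Racgap1, a centralspindlin subunit (r above 0.99), with a median of 0.99. These points share depth and normalisation, and 489 of 15908 other genes (3.07%) were correlated with the 40 as closely as Cks2 was. The effect of the number was then tested in a limma fit with number and genotype, a test added after these data had been seen. The number passed an adjusted p of 0.05 for 35 of the 40 genes (87.5%), against 8.65% of all genes tested. Adjusted p ran from 0.0361 to 0.0727, and the 5 genes that did not pass were Cdc25c, Cks2, Kif4, Mad2l1 and Ttk. With the edgeR quasi-likelihood test on the reads 27 of 40 passed, against 655 of all 15948 genes. With the DESeq2 likelihood ratio test 40 of 40 passed, against 4944 of all 15948 genes. The limma count depends on single libraries. It fell to 0 of 40, and to 0 of all genes, when WT 1, WT 2, CharmeKO 1 or CharmeKO 2 was left out. Dropping WT 3 gave 40, against 37.4% of all genes, and dropping CharmeKO 3 gave 39, against 28.6%. At an unadjusted p under 0.05, 38 to 40 genes passed in each of these 6 fits. The share of all genes at that unadjusted threshold was not counted, so these numbers have no background beside them.

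Libraries numbered 2 against those numbered 1 gave the only one of the 3 contrasts between numbers with adjusted limma calls. All 40 genes were lower, with a median log2 difference of -1.49, and 38 passed the adjusted threshold in that direction, against 11.0% of all genes. The largest difference was -2.32 ± 0.22 (SE) for Cdca8 and the smallest -0.78 ± 0.16 for Espl1, the separase protease that cuts cohesin. The 2 that did not pass were Mad2l1 (-0.85, limma adjusted p = 0.0519) and Kif15 (-0.86, adjusted p = 0.0518). Number 3 exceeded number 2 for 40 of 40 genes with a larger median of 1.76, but none passed the adjusted limma threshold, nor did any gene in the table (0%), although all 40 had an unadjusted p under 0.05. Number 3 against number 1 was smaller, a median of 0.24 with 37 genes higher and 3 lower, and again 0 of 40 and 0% of all genes passed, with 8 of the 40 at an unadjusted p under 0.05. For these 3 contrasts the share of all genes with an unadjusted p under 0.05 was not counted. They share libraries and are not independent of each other.

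On the GRCm38 GENCODE M21 annotation Cdk1 lies on chromosome 10 (69335146 to 69352938), Anln on chromosome 9 (22332012 to 22389188), Cenpe on chromosome 3 (135212537 to 135273611) and Mki67 on chromosome 7 (135689784 to 135716361), and the counts cover their exons. Cdk1, the kinase that drives entry into mitosis, had the highest mean of the cyclin-CDK1 genes, with 1663, 633 and 1719 normalised reads in WT 1 to 3 and 1748, 681 and 1283 in CharmeKO 1 to 3. Number 2 was the low library in both groups, and the groups overlapped (means 1339 ± 612 and 1237 ± 535, SD, n = 3). Its number 2 libraries were lower than its number 1 libraries by a log2 difference of -1.37 ± 0.18 (SE, limma adjusted p = 0.0236). Ccna2, whose product pairs with CDK2 and CDK1 from S phase into early mitosis, had 1303, 320 and 1603 in WT and 1341, 296 and 1627 in CharmeKO. The genotypes were nearly superimposed for Ccna2 within every number, at log2 differences of 0.04, -0.11 and 0.02. Cdc25c, the phosphatase that releases CDK1 from inhibition, was the lowest of the 40, with 149, 47 and 159 in WT and 135, 63 and 190 in CharmeKO. Foxm1, the transcription factor that switches on many of these genes, stood at 1407, 529 and 1765 in WT and 1254, 514 and 1554 in CharmeKO, and was lower in the CharmeKO library of every pair, with group ranges that overlapped. Part of an exon of Foxm1 overlaps Gm44596 and Tex52 on its own strand. Reads from that part cannot be told apart by gene, and how they were counted was not checked.

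Plk1, the kinase of spindle assembly and mitotic exit, led the kinases with 1018, 283 and 1418 normalised reads in WT and 1286, 303 and 1260 in CharmeKO. The groups overlapped almost fully (907 ± 576 and 950 ± 560), and the fall from number 1 to number 2 was -1.96 ± 0.17 on the log2 scale (limma adjusted p = 0.0187). Aurka, the Aurora kinase of the spindle poles, had 706, 220 and 832 in WT and 745, 220 and 676 in CharmeKO, again lowest in number 2. Pbk, a kinase expressed in mitosis, had 414, 116.4 and 500 in WT and 430, 119 and 556 in CharmeKO, with the same order of numbers. In the chromosomal passenger complex, which corrects faulty kinetochore attachments, Incenp was the highest, with 1302, 704 and 1506 in WT and 1439, 675 and 1386 in CharmeKO. It was also the member with the narrowest span (1171 ± 417 and 1167 ± 426). Cdca8 of the same complex had 663, 143 and 761 in WT and 646, 119 and 485 in CharmeKO, so that the subunits of one complex did not fall to the same degree.

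Bub1b, the checkpoint kinase-like protein BUBR1, had 701, 461 and 1206 normalised reads in WT and 855, 369 and 1285 in CharmeKO, lowest in number 2 and highest in number 3 in both groups (790 ± 380 and 836 ± 459). Cdc20, the APC/C activator that the checkpoint restrains, had 1321, 374 and 1508 in WT and 1635, 307 and 1606 in CharmeKO (1068 ± 608 and 1183 ± 759). Per kilobase of exon it was also the highest of the 40, at a mean of 14.4 RPKM (reads scaled to exon length and library size), with Cks2 at 12.9 and Kif20a at 10.3, while the median of the 40 was 4.32 and Cdc25c was lowest at 0.603. The level of Cdc20 in number 2 was below that in number 1 by a log2 difference of -2.11 ± 0.19 (limma adjusted p = 0.0187). Espl1 stood at 796, 489 and 952 in WT and 701, 383 and 951 in CharmeKO (746 ± 236 and 678 ± 284).

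Kif20a, the midzone kinesin MKLP2, was the highest of the kinesins, with 1859, 720 and 2424 normalised reads in WT and 2272, 816 and 3059 in CharmeKO. CharmeKO was above WT within each number, but the groups overlapped (1668 ± 868 and 2049 ± 1138). Cenpf, a large protein of the outer kinetochore, had 1122, 493 and 1574 in WT and 1052, 371 and 1486 in CharmeKO (1063 ± 543 and 969 ± 562). Cenpe, the kinetochore motor that brings chromosomes to the spindle equator, had 1213, 476 and 1345 in WT and 1060, 297 and 1078 in CharmeKO, lower in each CharmeKO library than in the WT library of its number (1011 ± 468 and 812 ± 446). Anln, the anillin scaffold of the contractile ring, had 3793, 1319 and 5077 in WT and 3266, 884 and 3695 in CharmeKO (3396 ± 1910 and 2615 ± 1514). It too was lower in CharmeKO within every number, while the lowest WT library lay under 2 of the CharmeKO libraries.

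Mki67, the Ki-67 protein that coats mitotic chromosomes and the usual marker of proliferating cells, had 3994, 1478 and 5916 normalised reads in WT and 3832, 1213 and 5930 in CharmeKO. The group means were 3796 ± 2226 and 3658 ± 2363, and the genotypes differed by log2 values of only -0.06 and 0.0034 in numbers 1 and 3 and by -0.28 in number 2. Top2a, the topoisomerase that untangles sister chromatids, had 3717, 1980 and 5181 in WT and 3504, 1373 and 5171 in CharmeKO. Its exons overlap Gm23451 on the same strand. Of the 40 genes, 38 had no such overlap, and 10 overlapped a gene on the opposite strand, which the strand-specific counting of the study separates.

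The study compared CharmeKO with WT. It reported similar proliferation rates of the 2 genotypes in culture and a higher clonogenic ability of CharmeKO CFs, which are measures of cells and not of RNA. In the fits of genotype run here, the mitosis and G2/M genes gave no call. In the limma fit of genotype alone 0 of 40 genes passed an adjusted p of 0.05, as did 0% of all genes, and 0 of 40 had an unadjusted p under 0.05 against 0.897% (143) of all genes. The median log2 fold change of the 40 was -0.03 (24 lower, 16 higher), from -0.42 ± 0.70 (SE) for Anln to 0.27 ± 0.63 for Kif20a, beside a median of 0.0022 over all genes. Cenpe, Anln, Espl1 and Kif20a ranked first by unadjusted p, and the limma adjusted p was 1.00 for each. The WT and CharmeKO ranges overlapped for all 40, while 1.98% of all genes lay wholly lower and 2.14% wholly higher in CharmeKO. DESeq2 called 0 of the 40 and 0.0502% of all genes. The sign of the median depended on which library was left out. Dropping WT 1 gave 0.09, dropping WT 3 gave 0.30 and dropping CharmeKO 2 gave 0.49. It was -0.58, -0.29 and -0.33 when WT 2, CharmeKO 1 and CharmeKO 3 were dropped. With plain library totals the median of the 40 was 0.01 (19 lower, 21 higher), where the median of all genes was 0.04.

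Same-numbered libraries deviated together to unlike degrees, at r = 0.76, 0.51 and 0.22 over all genes tested for numbers 1, 2 and 3. CharmeKO 3 was no closer to WT 3 (0.217) than to WT 2 (0.222), and the labels do not say that numbers are pairs. Taking the numbers as pairs is thus an assumption, under which the genotypes were also compared within numbers, as a block. The standard errors then shrank, for Anln from 0.70 to 0.11, and the fold changes stayed as they were. Again 0 of 40 passed the adjusted threshold in limma with the block. Unadjusted, 3 of the 40 had a p under 0.05 against 5.37% of all genes: Anln lower by a log2 difference of -0.42 ± 0.11, Kif20a higher by 0.27 ± 0.09 and Cenpe lower by -0.40 ± 0.14 (SE), with a limma adjusted p of 0.800 for each. At an unadjusted p under 0.05, the edgeR fit with the block had 3 of the 40 and 768 of all 15948 genes. DESeq2 with the block had 1 of the 40 (Anln) and 891 of all 15948 genes at that threshold. The edgeR fit called 0 of the 40. DESeq2 with the block called 0 of the 40 and 0.401% of all genes, and Anln had an adjusted p of 0.373 there.

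**Figure D3:**
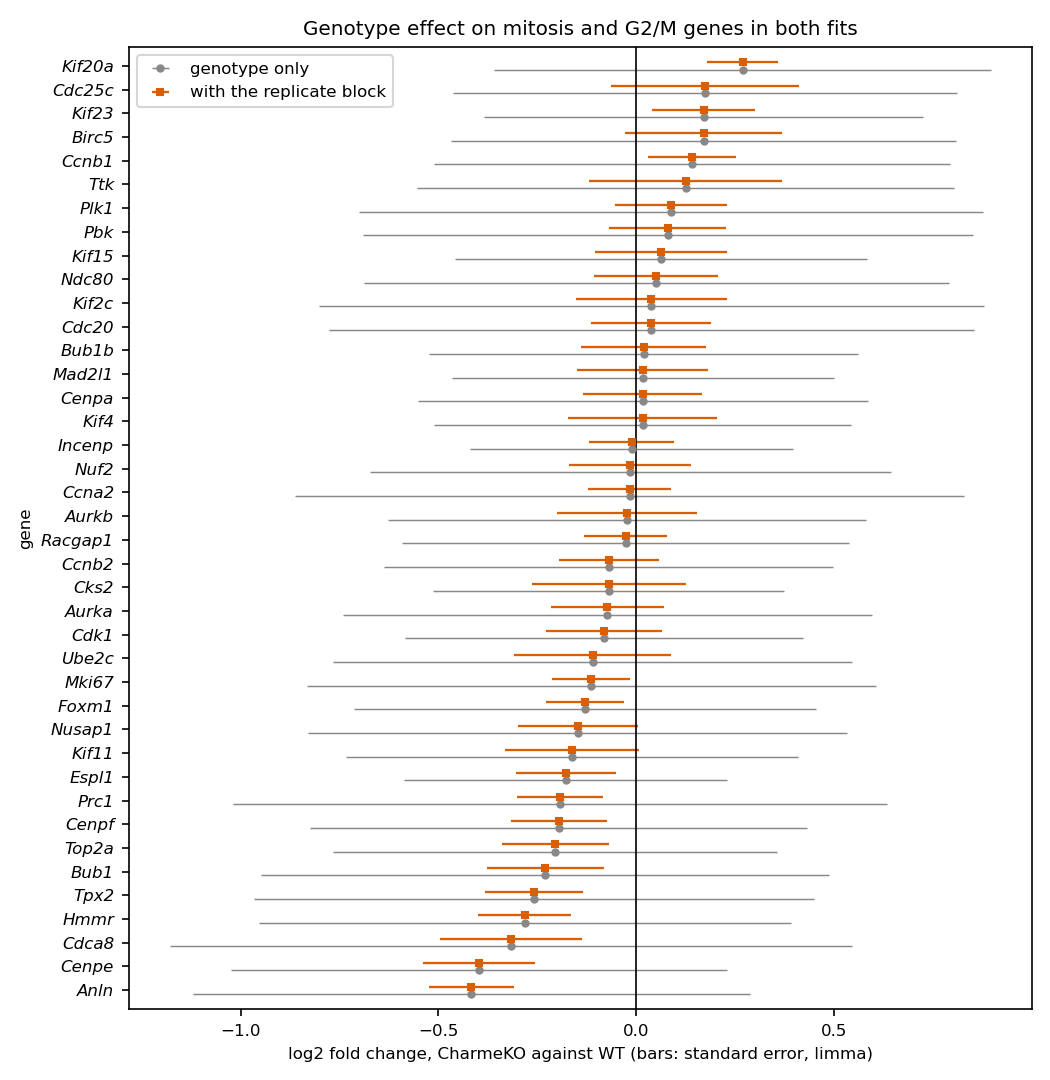
Log2 fold change, CharmeKO against WT, of the 40 genes with its standard error in the limma fit of genotype alone (grey circles) and in the fit with the replicate block (orange squares). The fold changes are the same in both fits, the bars are several times wider without the block, and the genes run from Anln at -0.42 to Kif20a at 0.27.

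Within numbers the direction was mixed. The median log2 difference of the 40, CharmeKO minus WT, was 0.05 in number 1 (18 lower, 22 higher), -0.10 in number 2 (24 lower, 16 higher) and -0.11 in number 3 (28 lower, 12 higher), where the medians over all genes were 0.02, 0.01 and -0.01. The size of the difference, whatever its sign, had a median of 0.12 for the 40 and 0.17 for all genes in number 1. These medians were 0.24 and 0.28 in number 2, and 0.23 and 0.32 in number 3. The median of the mitotic genes was the smaller one in each pair, but the sets were not matched for level. All 40 had at least 44 reads in every library, and the filter admits genes with fewer. In all 3 pairs 13 of the 40 genes were lower (Anln, Bub1, Ccnb2, Cdca8, Cenpe, Cenpf, Espl1, Foxm1, Hmmr, Nusap1, Prc1, Top2a and Tpx2), against 14.0% of all genes, and 4 were higher (Ccnb1, Kif20a, Kif23 and Pbk), against 16.4%. Several of the 13 differed by almost nothing in a pair: Tpx2, the activator of Aurora A on the spindle, had -0.0011, -0.32 and -0.46, and Prc1, the cross-linker of midzone microtubules, -0.0093, -0.28 and -0.28. Hmmr, a spindle assembly protein, was lower by -0.31, -0.14 and -0.40. Its counting errors on the log2 scale were 0.065, 0.12 and 0.061. The difference in number 2 was thus close in size to its counting error and not clearly away from 0.

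**Figure D4:**
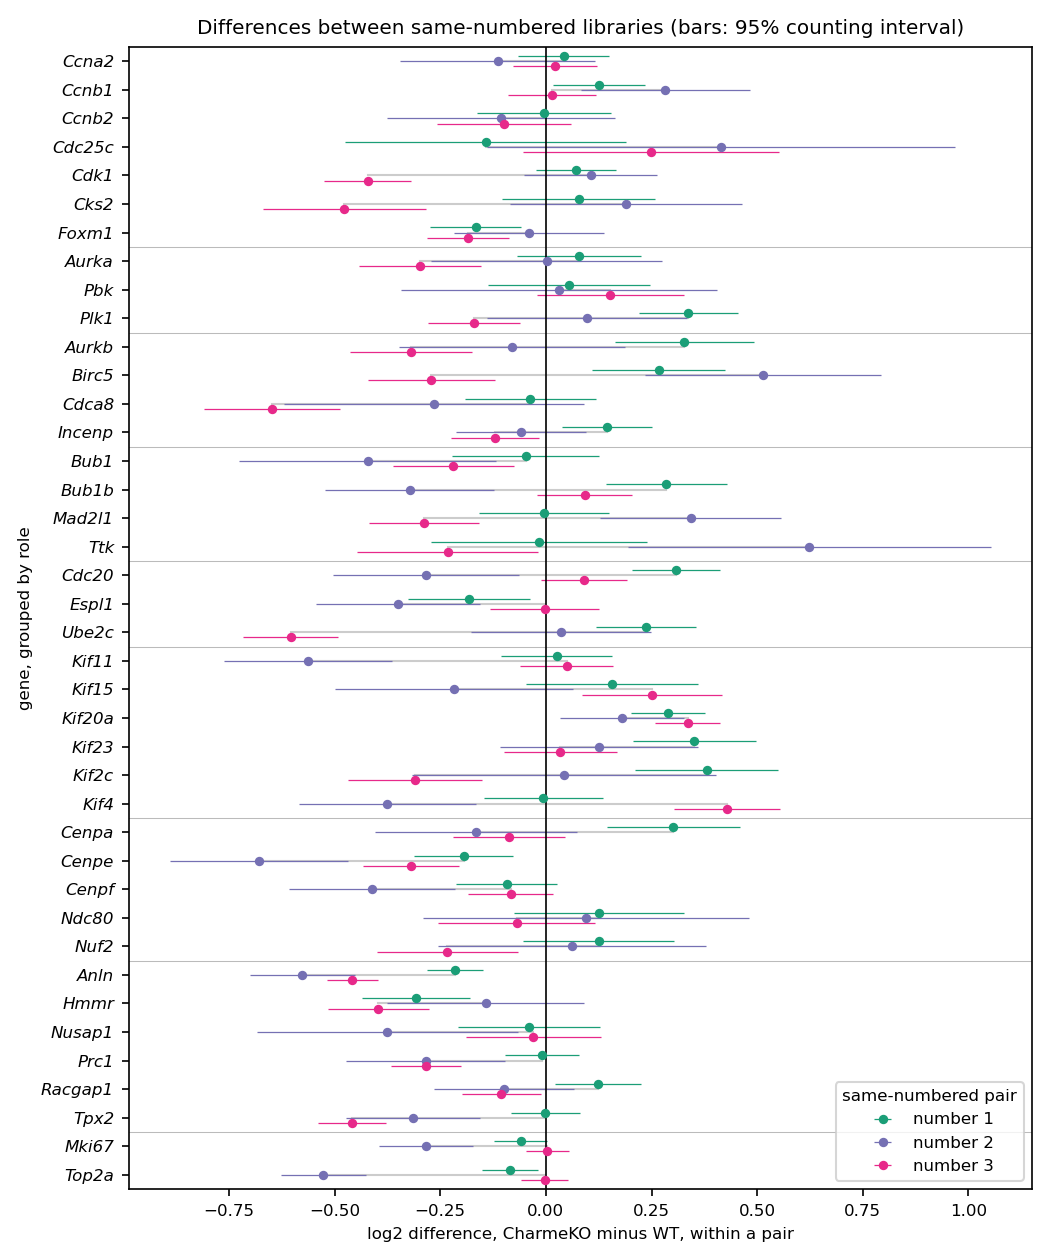
Log2 difference, CharmeKO minus WT, between libraries of the same number for each of the 40 genes, grouped by role, with bars of 1.96 counting errors, which leave out the variation between cultures. Points of one gene often lie on both sides of 0, and Anln, Cenpe and Hmmr are among the 13 that lie left of 0 in all 3 pairs.

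By role, the genes of the spindle, midzone and cytokinesis had the lowest median fold change, -0.23, with all 6 (Tpx2, Prc1, Anln, Nusap1, Hmmr and Racgap1) below 0. The 2 chromosome proteins Mki67 and Top2a had -0.11 and -0.20. Of the kinesins 5 of 6 were above 0 (median 0.05), with Kif11, the motor that separates spindle poles, at -0.16. The other roles had medians from -0.11 to 0.08. In number 2 against number 1 every role fell, by a median log2 difference from -1.13 for the checkpoint genes to -1.83 for the kinases. None of these role values was tested.

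Beside the 8.65% of all genes that passed the limma test of the number, the other genes of the pathway gave the counts that follow, with no test between lists. Of 99 further mitosis and G2/M genes 45 (45.5%) passed, and 90 were lower in number 2 than in number 1, with a median of -1.06. Of 50 G1/S and DNA replication genes 13 (26%) passed, and 48 were lower, with a median of -0.81. Of 5 D-type cyclins and their kinases 2 (40%) passed and all 5 were lower (median -0.88), and of 20 factors that transcribe G2/M genes 1 (5%) passed, with 16 lower and a median of -0.51. Of 16 inhibitors and quiescence genes 4 (25%) passed, with 10 higher and 6 lower in number 2 and a median of 0.60.

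**Figure D5:**
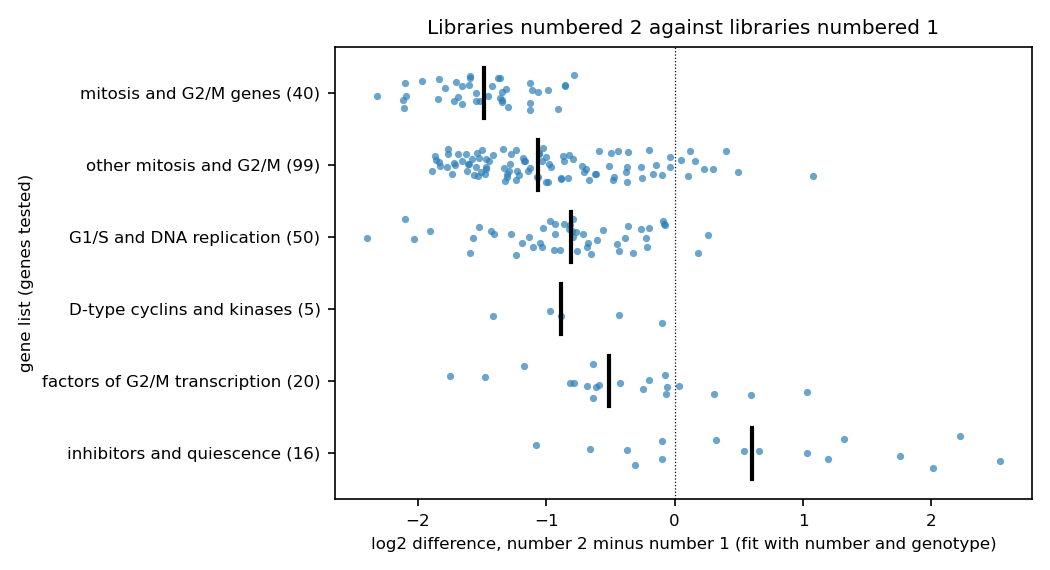
Log2 difference between libraries numbered 2 and 1, in the fit with number and genotype, for each tested gene of 6 lists (points) with the list's median (bar). The 40 mitosis and G2/M genes all lie below 0 (median -1.49), the other proliferation lists lie mostly below 0, and the inhibitors and quiescence genes have a median of 0.60.

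Gas1, a growth arrest protein of resting fibroblasts, had 1346, 7540 and 2377 normalised reads in WT and 2691, 10502 and 3216 in CharmeKO with the peak in number 2 and the lowest value in number 1 in both genotypes. Its log2 difference between numbers 2 and 1 was 2.22, and the number passed the test (limma adjusted p = 0.0361). Btg2 and Txnip, further antiproliferative genes that were named after their values had been seen, had differences of 2.54 and 1.76. Inhibitors also lay on the other side, with differences of -1.08 for Cdkn2b, -0.66 for Cdkn2c, -0.37 for Cdkn2a and -0.31 for Ccng1, named by the same look at their values. By genotype no gene of these 5 lists was called by limma and none had an unadjusted p under 0.05. The genes with the lowest unadjusted p were Cdc27, Kif2a and Smc4 among the further mitotic genes, at log2 fold changes of -0.27, -0.26 and -0.21, and Cdk4 among the D-type cyclins and kinases, at 0.33 ± 0.15 (SE, limma adjusted p = 1.00). Cdk4, the G1 kinase, had 8455, 7271 and 7718 normalised reads in WT and 9744, 9914 and 9853 in CharmeKO, so its groups did not overlap, as was the case for 2.14% of all genes in that direction. With the block, an unadjusted limma p under 0.05 was found for 4 of 99 further mitotic genes and 0 of 50 G1/S and replication genes. It was found for 2 of 16 inhibitors and quiescence genes, 0 of 20 factors of G2/M transcription and 2 of 5 D-type cyclins and kinases. These were 8 genes in all, where the share of all genes was 5.37%. They were Gas1 (log2 fold change 0.64), Cdkn2a (0.47), Cdk4 (0.33), Cdk6 (-0.27), Cdc27 (-0.27), Smc2 (-0.51), Stil (-0.59) and Plk4 (-0.37), of which the last 3 were named for this count.

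The limma test of the number, passed by 8.65% of all genes, was passed by 1 of 12 fibroblast (8.33%), 4 of 11 macrophage (36.4%), 2 of 12 smooth muscle (16.7%), 1 of 7 mesothelial (14.3%), 0 of 6 endothelial and 0 of 3 cardiomyocyte markers. At an unadjusted limma p under 0.05 there were 5 fibroblast, 10 macrophage, 8 smooth muscle, 5 mesothelial, 2 endothelial and 2 cardiomyocyte markers. The share of all genes at that threshold was not counted. The 12 fibroblast markers had a median log2 difference of 0.52 between numbers 2 and 1, with 8 of them higher in number 2. Macrophage markers were lower in number 2 than in number 1 for 10 of 11 tested (median -1.38) and lower still in number 3 (median -3.90 against number 1), where the mitotic genes were highest. Mesothelial markers were lower in number 2 for 5 of 7 (median -3.29), and 9 of 12 smooth muscle markers were lower in number 2 (median -0.73). By genotype all 12 smooth muscle markers had negative fold changes (median -1.73, 0 called by limma, 2 at an unadjusted p under 0.05), while the median of the mitotic genes stayed at -0.03. The part of these cells in the level of the mitotic genes was not tested.

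The genes outside the 40 that were closest to their mean over the 6 libraries, among 11543 with a mean of at least 100 normalised reads, were Kif18b, Ncaph, Shcbp1, Anp32b and Zwilch, with Pearson r above 0.99 for each. Kif18b, a mitotic kinesin, had 483, 183 and 628 normalised reads in WT and 511, 175 and 537 in CharmeKO. Anp32b, a histone chaperone in none of the lists, had 4280, 2859 and 4845 in WT and 4540, 2851 and 4867 in CharmeKO, a span of only 1.71-fold in the same order of numbers. Of the 100 closest genes 27 were in the list of further mitosis and G2/M genes and 7 in the G1/S and replication list. Most of the 100 were in neither list. The lists hold 99 and 50 genes, and their share among the 11543 genes was not counted.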

How the data were processed

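Poly(A) RNA-sequencing libraries of cultured CFs, 3 WT and 3 CharmeKO, were analysed from one expression table. According to its methods, STAR was used by the authors for alignment and for counting per gene, with the reverse-strand setting, on an Ensembl annotation to which Charme was added; genes with few reads were then removed and counts were divided by DESeq2 size factors. The deposited values are therefore a library-scaled signal, here called normalised reads. The assembly is named differently in the study's methods and in the labels, so no coordinate of the table is printed; positions come from GENCODE M21 on GRCm38 and promoter windows from RefSeq on GRCm38.p6. Every column held whole multiples of one step, and 100% of 116676 values came out as whole reads within 0.001. No read depth beyond genes is known; 3 reads correspond to 0.0641 to 0.0783 CPM, and counting intervals cover counting error only.

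Genotype was tested with limma 3.58.1 (trend, log2 of value + 1, two-sided, Benjamini-Hochberg adjusted p of 0.05 over 15948 genes) in R 4.3.3, so fold changes are on that scale and are understated for low genes. Alternatives were edgeR 4.0.16 quasi-likelihood and DESeq2 1.42.0 on the recovered reads, a replicate block, pseudocounts of 0.5 and 5, no filter, at least 50 reads in at least 3 libraries, plain totals, TMM, and leaving out libraries or pairs. The number was tested with limma's F test, added after seeing the data. Same-numbered WT and CharmeKO libraries had deviations from their group means that correlated at r = 0.76, 0.51 and 0.22, all over 0.1, so the numbers were taken to pair the libraries. The other combinations ranged from -0.643 to 0.222, and CharmeKO 3 correlated slightly more with WT 2 (0.222) than with WT 3 (0.217). Scripts were tested on simulated data, and figures were drawn with matplotlib 3.10.9.

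The 40 genes and all lists were chosen with earlier results of these data known. All 40 are named by role. Values in all libraries are given for the highest member of each role, for the 4 with the lowest unadjusted p and for others described, at most 3 genes of each further list are named by lowest unadjusted p (others, named after their values were seen, are said to be so), and the 5 closest other genes by Pearson correlation. RPKM uses the union of GENCODE exons.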

Additional observations from a re-analysis of the deposited data

How the results depend on the processing

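By genotype 0 of the 40 genes were called in every fit run, so a result could lose or change only its sign. Over all genes limma called 0, edgeR 0 (158 at an unadjusted p under 0.05), DESeq2 8 and DESeq2 with the replicate block 64; limma with the block had 857 at an unadjusted p under 0.05 in place of 143, and edgeR with the block called 0. The block left every fold change of limma as it was and changed no call among the 40. The pseudocounts, both other filters and TMM turned no sign. Fold changes that turned sign did so with edgeR (Ccna2 0.024, Mad2l1 -0.069, Ttk -0.030), with DESeq2 (Ccna2 0.013, Mad2l1 -0.079, Ttk -0.040) and with plain library totals (Ccna2 0.018, Aurkb 0.010, Incenp 0.023, Nuf2 0.019, Racgap1 0.0073). Plain totals moved all genes together, from a median of 0.0022 to 0.036, and these values near 0 moved with them; for edgeR and DESeq2 the cause was not tested. The test of the number called 1379 genes by limma, 655 by edgeR and 4944 by DESeq2, and 1271, 1286 and 1566 with plain totals, TMM and a pseudocount of 5. When one library was left out it called 0 to 5906 genes and 0 to 40 of the mitosis and G2/M genes; the libraries are named in the report, and the smaller number of samples is part of every such fit.

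Leaving out a library, or a pair with the block, gave these ranges of log2 fold change, CharmeKO against WT, for the 40 genes whose sign turned in some such fit: Anln -0.99 to 0.24, Aurka -0.67 to 0.49, Aurkb -0.51 to 0.49, Birc5 -0.46 to 0.62, Bub1 -0.78 to 0.42, Bub1b -0.38 to 0.52, Ccna2 -0.74 to 0.76, Ccnb1 -0.47 to 0.68, Ccnb2 -0.55 to 0.42, Cdc20 -0.60 to 0.84, Cdc25c -0.39 to 0.62, Cdca8 -1.08 to 0.43, Cdk1 -0.55 to 0.30, Cenpa -0.40 to 0.52, Cenpe -0.87 to 0.22, Cenpf -0.67 to 0.39, Cks2 -0.47 to 0.21, Espl1 -0.47 to 0.18, Foxm1 -0.65 to 0.35, Hmmr -0.90 to 0.27, Incenp -0.34 to 0.34, Kif11 -0.58 to 0.40, Kif15 -0.34 to 0.52, Kif20a -0.25 to 0.83, Kif23 -0.29 to 0.65, Kif2c -0.69 to 0.77, Kif4 -0.40 to 0.54, Mad2l1 -0.43 to 0.41, Mki67 -0.69 to 0.54, Ndc80 -0.60 to 0.68, Nuf2 -0.60 to 0.53, Nusap1 -0.68 to 0.50, Pbk -0.57 to 0.76, Plk1 -0.61 to 0.78, Prc1 -0.90 to 0.56, Racgap1 -0.50 to 0.48, Top2a -0.62 to 0.34, Tpx2 -0.87 to 0.38, Ttk -0.54 to 0.61, Ube2c -0.71 to 0.41.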
